A study of Mus musculus with 10 samples.

Results

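The 10 genes described here encode AP-1 transcription factors and close relatives: Fos, Fosb, Fosl1, Fosl2, Jun, Junb, Jund, Atf3, Batf and Maff. They were picked out by gene symbol from 45706 genes in the deposited tables, and all 10 were found. RNA was sequenced in mouse cells on the way from fibroblasts to induced pluripotency, in 5 groups of 2 libraries each. Mouse embryonic fibroblasts (MEF) of strain C57BL/6 x 129 carried a doxycycline-inducible OKSM cassette (Oct4, Klf4, Sox2 and Myc) in the Col1a1 locus and the M2rtTA transactivator in the ROSA26 locus, and were taken from MEF medium with no doxycycline. Cells of the same genotype were taken at day 3 (D3), day 6 (D6) and day 9 (D9) in ESC medium with doxycycline at 1 µg/ml and ascorbic acid at 50 µg/ml. The D3 cells were unsorted, whereas the D6 and D9 cells were sorted for SSEA+, a surface antigen of early pluripotent cells. Embryonic stem cells (ESC) of the V6.5 line, also C57BL/6 x 129, were grown in ESC medium on irradiated feeder cells, were unsorted, and their labels name no cassette. The comparison of D3 with MEF therefore combines the cassette, doxycycline, ascorbic acid, medium and time. Sex-linked genes, given below, also differed between MEF and every induced group. The comparison of D6 with D3 combines time with sorting. Comparisons of ESC with D9 or MEF combine cell state with line, cassette and feeder cells. With D9 they also combine treatment and sorting, and with MEF the medium. These parts cannot be told apart.

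AP-1 is a family of dimers of basic leucine zipper proteins that bind the sequence TGANTCA. Fos proteins do not pair with each other and need a Jun partner, whereas Jun proteins can also pair among themselves. Several of these genes, Fos foremost, are immediate early genes, switched on within minutes by serum, growth factors and cell stress through MAP kinases and then quickly switched off. In fibroblasts AP-1 occupies many active enhancers and drives genes of matrix turnover, adhesion and growth control.

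Libraries held 29585876 to 38275024 estimated reads. Levels within a gene are given as CPM, read counts scaled to a common library total after TMM normalization, and levels between genes as the authors' TPM, which is scaled by transcript length. Of the cassette genes, Pou5f1 (Oct4) went from 2.98 ± 0.545 CPM (SD, n = 2) in MEF to 233 ± 13.6 CPM (SD, n = 2) at D3, while Klf4, at 325 ± 6.73 and 461 ± 4.96 CPM, was not called. The 8 pluripotency markers summed to at most 2.41 CPM in MEF and to 3975 and 4061 CPM in ESC. The 12 fibroblast markers summed to 45610 and 47105 CPM in the MEF libraries, 4613 and 4653 at D3, 317 and 333 at D6, 126 and 134 at D9, and 4104 and 4224 in ESC, so the ESC libraries held 8.98% of the MEF level of these markers. The 8 macrophage markers summed to at most 26.6 CPM outside ESC and to 84.0 and 87.1 CPM in ESC. Xist was at 0.739 and 0.793 CPM in MEF and at 929.6 CPM or more in every induced library, while Ddx3y was at 86.4 and 90.6 CPM in MEF and at most 0.176 CPM in the induced libraries. In ESC, Xist was at 9.00 and 11.3 CPM and Ddx3y at 26.1 and 26.8 CPM. By these sex-linked genes, the MEF libraries read as male and the induced libraries as female. Comparisons of induced libraries with MEF are thus also between cells of different sex and donor, and that of ESC with D9 differs in these genes too. The part of this difference in the comparisons was not tested. The labels do not say whether replicates came from separate embryos or cultures, and p-values then measure the spread between these libraries only.

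The promoters of Fos, Fosb, Jun and Junb are shown, because these were the 4 most abundant members in MEF by TPM and their start regions hold motifs that ATF, CREB and AP-1 proteins can bind. Each line gives the 250 bases before the RefSeq start site (GRCm38.p6), 5′ to 3′ on the gene's strand. Capitals mark TGACG on either strand, the short form of the cAMP response element that ATF and CREB proteins bind, TGACATCA, a variant AP-1 and ATF site, and TATAAA, the core of a TATA box.
Fos (chr12:85473640-85473889, plus strand): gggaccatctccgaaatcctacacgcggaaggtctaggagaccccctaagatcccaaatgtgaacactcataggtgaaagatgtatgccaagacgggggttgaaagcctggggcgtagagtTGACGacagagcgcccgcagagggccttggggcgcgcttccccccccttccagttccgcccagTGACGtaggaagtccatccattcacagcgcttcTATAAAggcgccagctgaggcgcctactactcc
Fosb (chr7:19310046-19310295, minus strand): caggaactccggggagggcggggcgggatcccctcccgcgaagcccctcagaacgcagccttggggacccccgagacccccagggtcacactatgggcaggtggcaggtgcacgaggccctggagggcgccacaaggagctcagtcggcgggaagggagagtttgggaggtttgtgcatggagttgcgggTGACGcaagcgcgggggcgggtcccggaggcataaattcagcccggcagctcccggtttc
Jun (chr4:95052223-95052472, minus strand): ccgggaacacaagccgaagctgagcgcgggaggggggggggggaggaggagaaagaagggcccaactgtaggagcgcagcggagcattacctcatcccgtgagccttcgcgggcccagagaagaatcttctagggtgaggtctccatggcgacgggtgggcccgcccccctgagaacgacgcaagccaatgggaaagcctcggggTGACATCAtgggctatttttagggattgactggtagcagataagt
Junb (chr8:84978749-84978998, minus strand): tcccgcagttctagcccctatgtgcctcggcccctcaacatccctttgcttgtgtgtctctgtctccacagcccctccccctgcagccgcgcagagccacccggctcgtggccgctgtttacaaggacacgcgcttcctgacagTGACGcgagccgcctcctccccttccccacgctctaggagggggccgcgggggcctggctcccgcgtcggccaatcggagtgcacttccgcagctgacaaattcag

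RefSeq windows were matched for 9 of the 10 members, all but Fosl1, and 3 of the 11 windows belong to Maff. TGACG stood in a window of 6 of the 9 members (Fos, Fosb, Junb, Atf3, Batf and Maff), against 17.8% of 32851 windows of the same length over all genes. In Fos it started 129 and 66 bases before the start site, with TATAAA 33 bases before it, and 12.4% of all windows held TATAAA. TGACATCA started 45 bases before the start site of Jun and was also found in a Maff window, against 2.93% of all windows. The full palindrome TGACGTCA, which contains TGACG, was found only in a Maff window among these 11, and 1.55% of all windows held it. None of the 11 windows held TGANTCA (6.75% of all windows) or a CArG box (1.47%), the site of serum response factor. Only the 250 bases before each start site were searched, so a site farther upstream would be missed. TGACG and TATAAA were added to the search after the windows had been seen, and a match of letters is a description, not a binding site.

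The AP-1 genes as a group stood highest in MEF and lowest at D6 and in ESC. Their summed level was 6234 and 6333 CPM in MEF, 3211 and 3567 at D3, 1037 and 1068 at D6, 1535 and 1541 at D9, and 828 and 853 in ESC. The ranges of the 5 groups did not overlap. The MEF libraries were the highest for each of the 10 members. In bulk RNA, fewer cells expressing a gene and less of its RNA per cell cannot be told apart. A gene was called changed at an edgeR adjusted p under 0.05 and a log2 fold change of 1 or more in size (the minimum), with p adjusted over all 20165 genes tested.

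**Figure D1:**
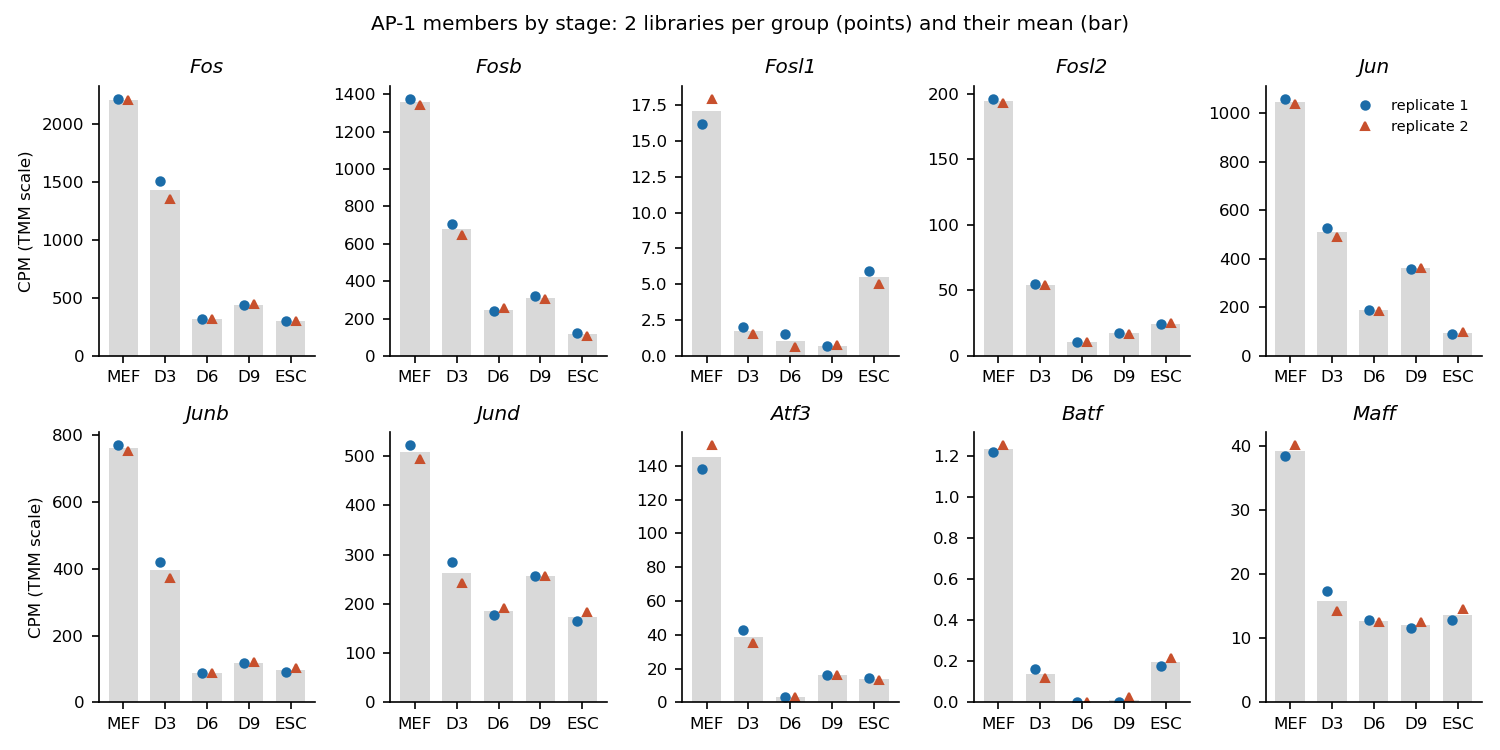
CPM on the TMM scale (y axis, linear and separate for each gene) of the 10 AP-1 members in MEF, D3, D6, D9 and ESC (x axis), with replicate 1 as circles, replicate 2 as triangles and the mean of the 2 libraries as a bar. MEF is the highest group in every panel, Jun and Atf3 stand higher at D9 than at D6, and Fosl1 stands higher in ESC than at D3, D6 or D9.

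Of the Fos genes, Fos (ENSMUSG00000021250.11, chromosome 12, 85473890 to 85477273, plus strand, GRCm38, up to 4 exons) encodes the founding member and the classic serum-induced partner of Jun. Fos stood at 2214 and 2201 CPM in MEF, 1507 and 1351 at D3, 314 and 317 at D6, 442 and 443 at D9, and 303 and 298 in ESC. No 2 groups overlapped, and ESC was the lowest. From MEF to D3 the log2 fold change was -0.63 (SE 0.04, adjusted p 4.7e-09), under the fold change minimum. Fos fell at D6 by 2.18 on the log2 scale (SE 0.04, adjusted p 2.7e-14), a 4.53-fold difference.

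Fosb (ENSMUSG00000003545.2, chromosome 7, 19302696 to 19310051, minus strand, up to 5 exons), a close paralog of Fos with a more lasting protein in some of its forms, followed the same order of groups as Fos. It stood at 1376 and 1342 CPM in MEF, 707 and 649 at D3, 238 and 256 at D6, 318 and 305 at D9, and 123 and 108 CPM in ESC. No neighbouring groups in this order overlapped. The log2 fold change was -1.0 (SE 0.05, adjusted p 6.2e-10) from MEF to D3, which lies on the fold change minimum, and -1.46 (SE 0.06, adjusted p 2.6e-11) from D3 to D6. ESC was lower than D9 by 2.69-fold.

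Fosl2 (ENSMUSG00000029135.10, chromosome 5, 32135801 to 32157842, plus strand) encodes Fra-2, a Fos protein that lacks the strong activation domain of Fos. Fosl2 stood at 196 and 193 CPM in MEF, 54.5 and 54.3 at D3, 10.7 and 10.9 at D6, 17.7 and 17.0 at D9, and 24.2 and 24.9 in ESC. Unlike in Fos, Fosb and Jun, the lowest group was D6 and not ESC. Fosl2 fell at both of the early steps, by 1.84 (SE 0.04, adjusted p 1.5e-14) and 2.34 (SE 0.05, adjusted p 5.5e-14) on the log2 scale.

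Fosl1 (ENSMUSG00000024912.5, chromosome 19, 5447547 to 5455946, plus strand) encodes Fra-1, which is known as an AP-1 subunit of mesenchymal and invasive cells. It was much less abundant: 16.2 and 17.9 CPM in MEF, 2.02 and 1.51 at D3, 1.53 and 0.605 at D6, 0.675 and 0.732 at D9, and 5.92 and 5.05 in ESC. The D3, D6 and D9 levels overlapped between neighbours, and D6 replicate 2 and D9 replicate 1 rested on 20 and 21 reads. Fosl1 had the largest fall from MEF to D3 of the 10 members, 3.27 on the log2 scale (SE 0.24, adjusted p 1.9e-08), and stood 2.95 higher in ESC than at D9 (SE 0.29, adjusted p 4.9e-07). The ESC level was 32.2% of the MEF level, beside 8.98% for the summed fibroblast markers, and the part of feeder RNA in it was not tested.

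Of the Jun genes, Jun (ENSMUSG00000052684.4, chromosome 4, 95049034 to 95052222, minus strand, a single-exon gene) encodes the partner that all Fos proteins can use and the main substrate of the JNK kinases. Jun stood at 1060.2 and 1037 CPM in MEF, 529.6 and 492 at D3, 189.6 and 186 at D6, 359.8 and 362 at D9, and 88.9 and 99.8 in ESC. The groups did not overlap, and D9 lay well above D6 in both libraries. Jun was lower at D3 by 1.04 (SE 0.05, adjusted p 6.1e-11) and again at D6 by 1.44 (SE 0.05, adjusted p 5e-12) on the log2 scale. At D9 it was 1.92-fold higher than at D6 (log2 fold change 0.94, SE 0.05, adjusted p 2.2e-09), just under the minimum. Jun was then 3.83-fold lower in ESC than at D9 (adjusted p 1.6e-13). The antisense gene Junos, whose first part overlaps Jun on the plus strand, was at most 1.37 CPM in any library. The kit marks strand, but whether the quantification used strand is not given in the sources used here.

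Junb (ENSMUSG00000052837.5, chromosome 8, 84974484 to 84978718, minus strand), whose protein can restrain Jun and is induced together with Fos, stood at 770.5 and 754 CPM in MEF, 422 and 372 at D3, 88.3 and 89.6 at D6, 119 and 120.4 at D9, and 91.8 and 104 in ESC. Its lowest group was D6. The log2 fold change was -0.94 (SE 0.05, adjusted p 1.4e-09) from MEF to D3, under the minimum, and Junb fell by 2.16 (SE 0.06, adjusted p 7.9e-13) from D3 to D6.

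Jund (ENSMUSG00000071076.5, chromosome 8, 70698949 to 70700616, plus strand), the Jun gene that resting cells also express, had the smallest difference between MEF and ESC of the Fos and Jun genes. It stood at 522 and 495 CPM in MEF, 285 and 242 at D3, 179 and 192 at D6, 256 and 257 at D9, and 164 and 185 in ESC. D3 overlapped D9, and D6 overlapped ESC. No single step passed the minimum, and the log2 fold change was -0.95 (SE 0.07) at D3 and -0.51 (SE 0.07) at D6. Only the comparison of ESC with MEF called it, at -1.54 (SE 0.07, adjusted p 3.8e-11). The deposited Jund transcript has 2878 bases, more than the 1668 bases of the gene in GENCODE M21, so the gene models differ.

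Among the relatives, Atf3 (ENSMUSG00000026628.11, chromosome 1, 191170296 to 191218039, minus strand), a stress-induced partner of Jun, had the largest changes of the 9 members other than Batf at D6 and at D9. Atf3 stood at 138 and 152 CPM in MEF, 42.8 and 35.0 at D3, 3.35 and 3.39 at D6, 16.5 and 15.9 at D9, and 14.5 and 13 in ESC. The groups did not overlap and D6 was the lowest. Atf3 fell by 1.90 (SE 0.08, adjusted p 2.1e-11) and then by 3.53 (SE 0.12, adjusted p 7.7e-12) on the log2 scale, and rose 4.8-fold from D6 to D9 (log2 fold change 2.26, SE 0.14, adjusted p 1.5e-08). The difference between ESC and D9 missed the threshold (log2 fold change -0.24, SE 0.10, adjusted p 0.057). Reads of Atf3 were divided between the transcripts Atf3-001 and Atf3-003. Atf3-001 took 67.1% and 65.1% of the reads in MEF, 42.0% and 24.4% at D3 and 22.6% and 41.1% in ESC, but replicates at D6 gave 39.0% and 79.4%, so these shares are not firm at this read length and depth.

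Maff (ENSMUSG00000042622.11, chromosome 15, 79346621 to 79359076, plus strand) encodes a small Maf protein, which has no activation domain and pairs with NRF and other zipper proteins. Maff stood at 38.5 and 40.2 CPM in MEF, 17.4 and 14.3 at D3, 12.9 and 12.6 at D6, 11.7 and 12.6 at D9, and 12.9 and 14.6 in ESC. It fell by 1.31 (SE 0.08, adjusted p 5e-09) at D3, and after that the levels of neighbouring groups in its order overlapped.

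Batf (ENSMUSG00000034266.5, chromosome 12, 85686669 to 85709087, plus strand) encodes a zipper protein without an activation domain that is best known in lymphocytes. It was at the edge of detection, with 33 and 41 reads in MEF, 6 and 4 at D3, 0 and 0 at D6, 0 and 1 at D9, and 6 and 8 in ESC. The MEF libraries stood clear of the others. The log2 fold change at D3 was -3.10 (SE 0.53, adjusted p 0.00016), but -0.72 and no longer called under limma on log2(TPM + 1). A count of 0 allows up to 3 reads, so fitted values of Batf against D6 or D9 are given only to compare settings. The fit called Batf lower at D6 than at D3 and higher in ESC than at D9.

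From MEF to D3, 7 of the 10 members were called lower and 0 higher, where 14.5% of all genes tested were called lower and 14.6% higher. The median log2 fold change of the members was -1.18 (-1.04 without Batf), beside 0.08 over all genes. Fosb, Fosl1, Fosl2, Jun, Atf3, Batf and Maff were the called members, while Fos, Junb and Jund were lower at D3 in both libraries with changes under the minimum. At D3, replicate 1 exceeded replicate 2 for all 10 members, a pattern that no other group showed. Fosb and Jun lay so near the minimum that the count changed with the setting. With library-size scaling neither was called, at -0.80 and -0.83. Fosb was also not called with no low-count filter (-0.99), nor under limma on log2(TPM + 1) (-0.97) or log2(TPM + 0.1) (-0.98). Without D3 replicate 2, Fosb and Jun stood at -0.93 and -0.98. Fosb also lost its call without each of 5 other libraries (MEF replicate 1, D6 replicates 1 and 2, D9 replicate 2 and ESC replicate 2), at -0.99 to -1. Without D3 replicate 1, Junb (-1.03) and Jund (-1.07) passed.

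From D3 to D6, 7 of the 10 members were again called lower and 0 higher, against 10.2% and 9.26% of all genes. The median was -1.81 (-1.46 without Batf), beside 0.03 over all genes. Fos, Fosb, Fosl2, Jun, Junb and Atf3 were called in addition to Batf. Jund and Maff were at -0.51 and -0.32, and Fosl1 at -0.72 (SE 0.31, adjusted p 0.061). Without D6 replicate 1 the change of Fosl1 was -1.55 and past the threshold.

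From D6 to D9, Atf3 alone was called higher and 0 members were called lower, against 5.18% and 2.68% of all genes. With no fold change minimum, 7 members were higher at an adjusted p under 0.05, against 15.7% of all genes under that rule. These were Fos (0.49), Fosb (0.34), Fosl2 (0.69), Jun (0.94), Junb (0.43), Jund (0.47) and Atf3 (2.26) as log2 fold changes. For each of these genes both D9 libraries lay above both D6 libraries. Maff (-0.07, adjusted p 0.67) and Fosl1 (-0.60, adjusted p 0.24) did not pass. Over the same step the fibroblast markers went from a summed 325 ± 11.3 CPM to 130.3 ± 5.95 CPM (SD, n = 2). The 8 epithelial markers went from a summed 250.1 to 1357.5 CPM, and the 8 keratinocyte markers from 10.4 and 11.5 CPM to 87.9 and 89.1 CPM. The last sum was mostly Sfn (44.4 CPM), Krt6a (26.3) and Krt17 (14.6), and Sfn and Krt17 were as high in ESC (43.3 and 14.1 CPM). Of the 6 keratinocyte markers tested, 5 were called higher at D9 and 0 lower, against 5.18% and 2.68% of all genes. Among them Krt14 went from 0.136 to 2.14 CPM (log2 fold change 3.95). Krt5, Krt15, Trp63 and Dsg3 stayed under 1 CPM, although Krt5 was called higher (0.517 CPM at D9, log2 fold change 3.03). The sum alone does not identify a cell type. The part of these lists in the result was not tested.

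**Figure D2:**
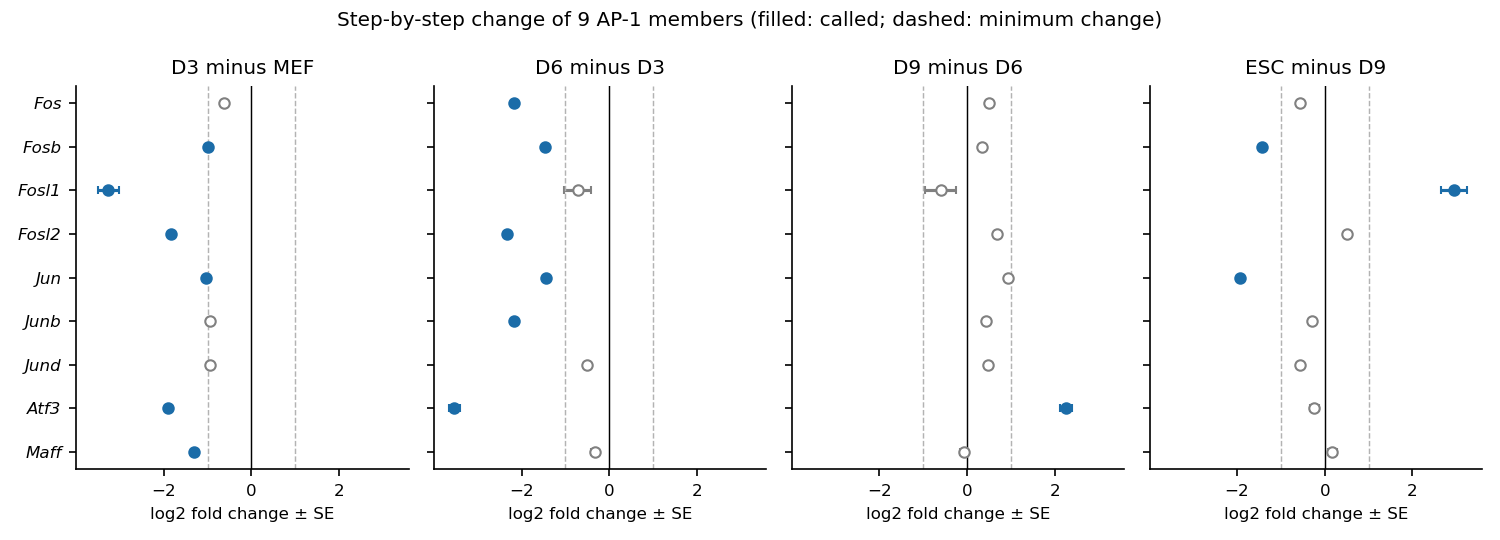
Log2 fold change with its standard error (x axis) of 9 AP-1 members (rows) at the steps D3 minus MEF, D6 minus D3, D9 minus D6 and ESC minus D9, fitted in edgeR. Filled points are called genes and dashed lines mark the minimum change of 1. Points lie left of 0 in the D3 and D6 panels, 7 of 9 lie right of 0 at D9 with Atf3 farthest, and the ESC panel is mixed, from Jun at -1.94 to Fosl1 at 2.95. Batf is left out because several groups had 0 or 1 reads.

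Between ESC and D9 the members did not move as a block. Fosb and Jun were called lower in ESC, at -1.43 (SE 0.06) and -1.94 (SE 0.05), and Fosl1 and Batf were called higher, against 14.3% of all genes lower and 18.6% higher. The call of Batf rests on 14 reads in the ESC libraries together and 1 at D9, and ends under limma on log2(TPM + 1), at 0.17. Fos, Junb and Jund stood at -0.56, -0.29 and -0.56, and Fosl2 at 0.50, all under the minimum. The summed fibroblast markers went from 130.3 CPM at D9 to 4164 CPM in ESC, and their part in these values was not tested.

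The ESC are a separate line and not the end point of this induction. Between ESC and MEF, 10 of 10 members were called lower in ESC, against 20.6% of all genes lower and 25.5% higher. The median was -2.92 (-2.96 without Batf), beside 0.10 over all genes. Under limma on log2(TPM + 1) the call of Batf ended (-0.67), which left 9. ESC levels as a share of MEF levels ranged from 8.51% for Fosb and 8.99% for Jun to 34.3% for Jund and 34.9% for Maff. The summed fibroblast markers stood at 8.98%, and the part of feeder RNA in the ESC levels of the members was not tested. Between D9 and MEF, 9 of 10 were called lower, against 19.8% of all genes lower and 24.1% higher, and Jund was the exception at -0.99 (SE 0.07), on the edge of the minimum. Without MEF replicate 2 it stood at -1.03 and passed. The call of Batf between D9 and MEF also ended under limma on log2(TPM + 1), at -0.84. These comparisons share the MEF libraries with the comparison of D3 with MEF and are not independent of it.

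The make-up of the AP-1 transcript pool differed between the stages. No test was run on these shares, and the part of feeder RNA in the ESC shares was not tested. On the TPM scale, Fos was the most abundant member in every library, with 816 and 783 TPM in MEF and 113 TPM in both ESC libraries. Its share of the members' summed TPM was 52.0% and 52.1% in MEF, 58.5% in both D3 libraries, 47.1% and 47.9% at D6, 45.1% and 45.3% at D9, and 50.9% and 52.1% in ESC. Jund made up 5.67% to 5.86% in MEF, 5.27% to 5.57% at D3, 13.1% to 13.9% at D6, 13% to 13.1% at D9 and 14.0% to 15.2% in ESC. The D6, D9 and ESC shares of Jund all lay above the MEF and D3 shares. Jun made up 16.4% at D9, its highest share, and 6.78% to 7.36% in ESC, its lowest. The 3 Jun genes together held 28.2% to 28.4% of the pool at D3, 39.5% to 39.6% at D9 and 33.8% to 36.7% in ESC. Shares of Fos depend on how its reads were assigned: the transcript Fos-002, 631 bases long and not coding, took 11.0% and 10.5% of the Fos reads in MEF but 36.3% and 35.0% of the Fos TPM, since TPM divides by length.

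**Figure D3:**
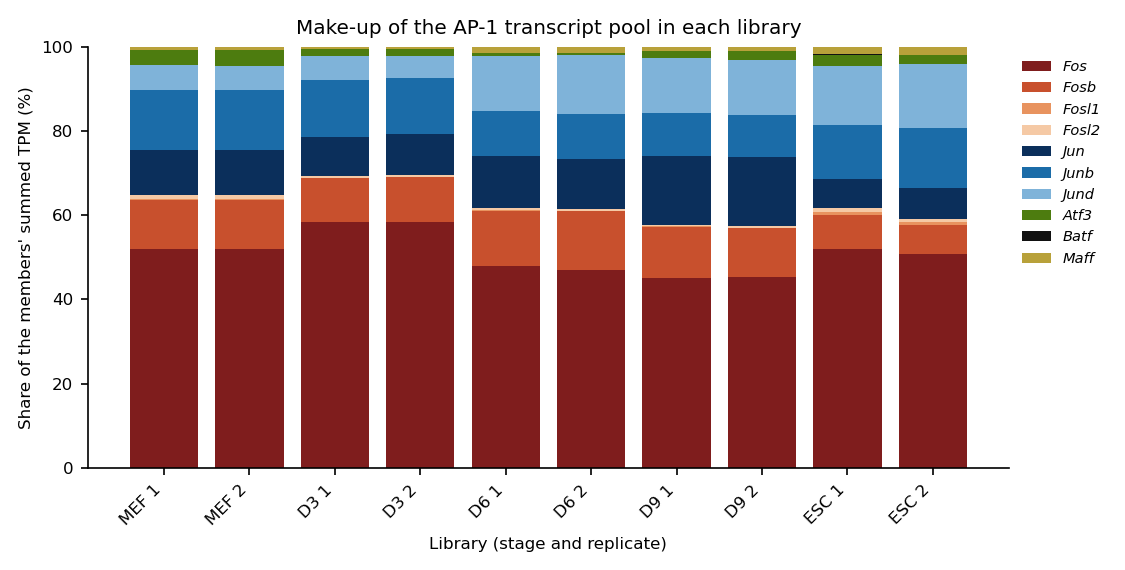
Share of the summed TPM of the 10 AP-1 members (y axis, percent, stacked to 100) in each of the 10 libraries (x axis, stage and replicate), with Fos genes in red to orange, Jun genes in blue, Atf3 in green, Batf in black and Maff in ochre. The light blue Jund segment is wider at D6, D9 and in ESC (13% to 15.2%) than in MEF and at D3 (5.27% to 5.86%), and replicates are alike.

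The members followed one another to different degrees. As a description over the 10 libraries, which share stages, Pearson's r of log2 CPM was 0.99 for Fos with Junb, 0.98 for Fosb with Jun and 0.96 for Fosl2 with Junb, but 0.31 for Fosl1 with Jun and 0.39 for Fosl1 with Fosb. Outside the family, among 11174 protein-coding genes, the gene most like Fos was Cyr61 (r 0.9957), a secreted immediate early protein, at 1491 CPM in MEF, 989 at D3, 246 at D6, 271 at D9 and 209.8 in ESC. The gene most like Junb was Zfp36 (r 0.9963), which encodes an RNA-destabilising protein and was also second for Fos. Lmo4 was the most like Jun (r 0.9976) and shared its higher D9 level, with 30.4 CPM at D6, 43.1 at D9 and 18.1 in ESC. Rnpep was the most like Fosl2 (r 0.9962), Dnajb9 the most like Fosl1 (r 0.9915), Wbp5 the most like Jund (r 0.9912), Fam21 the most like Atf3 (r 0.9922), Atp6ap2 the most like Fosb (r 0.993) and Pdia3 the most like Maff (r 0.9935). Because r measures shape and not size, some of these genes moved little: Fam21 went from 123 CPM in MEF to 81.5 CPM at D6, where Atf3 went from 145 to 3.37 CPM.

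Other immediate early genes, which respond to the same signals as Fos, were lower in large part. Of 20 other immediate early genes, 11 were called lower and 1 higher from MEF to D3, and 12 lower and 1 higher from D3 to D6, with medians of -1.07 and -1.11. Over all genes, 14.5% were called lower and 14.6% higher at D3, and 10.2% and 9.26% at D6. At the first of these steps the serum-induced kinase Sgk1 (log2 fold change -3.20), the small GTPase Rhob (-2.56) and the zinc finger factor Klf6 (-2.54) fell, while the matricellular protein Ctgf rose from 439 to 886 CPM. At the second, the zinc finger factor Egr2 (-3.61), Zfp36 (-2.90) and the MAP kinase phosphatase Dusp1 (-2.38) fell, while Arc, best known in neurons, rose (1.91). From D6 to D9, Klf6 (1.11) and Sgk1 (1.08) were called higher and 0 of the 20 lower, against 5.18% and 2.68% of all genes. Summed, these genes stood at 58.5% of the MEF level at D3, 20.01% at D6, 25.9% at D9 and 29.2% in ESC, against 53.9%, 16.7%, 24.5% and 13.4% for the AP-1 members. Of 10 heat shock genes, 2 were called lower and 1 higher at D3, and 1 lower and 0 higher at D6, near the shares of all genes just given. The pair Hspa1a and Hspa1b are near-identical copies whose reads may be divided uncertainly.

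Known AP-1 targets showed a different pattern in ESC. Of 19 tested, 15 were called lower and 1 higher (Ccnd1, 1.14) at D3, with a median of -2.72, against 14.5% and 14.6% of all genes. The secreted phosphoprotein Spp1 (log2 fold change -5.88), the angiogenic factor Vegfa (-4.66) and the inducible cyclooxygenase Ptgs2 (-4.31) were among those that fell. At D6, 13 were called lower, against 10.2% of all genes, among them Plau (-3.31), Ptgs2 (-2.77) and Ccl2 (-2.71). The 1 called higher there, Mmp10, was at 0 CPM at D3 and 0.105 CPM at D6. At D9, 3 were called higher, among them Spp1 (3.73) and Hbegf (1.03), and 2 lower (Cd44 at -1.29 and Ccl2 at -1.52), against 5.18% and 2.68% of all genes. In ESC, 15 of 19 were called higher than at D9 and 0 lower, with a median of 2.62, against 18.6% and 14.3% of all genes. Spp1 was at 478 CPM in ESC against 13.7 CPM at D9 and 265 CPM in MEF, and Ptgs2 at 106 CPM against 2.76 CPM and 275 CPM. Summed, the targets stood at 73.2% of the MEF level in ESC, while the AP-1 members stood at 13.4% and the fibroblast markers at 8.98%. The summed macrophage markers were also highest in ESC, mostly through Lyz2 (50.1 CPM) and Cd68 (25.5 CPM), while Ptprc and Csf1r were higher in MEF and Aif1 at D3. The part of feeder or other cells was not tested.

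**Figure D4:**
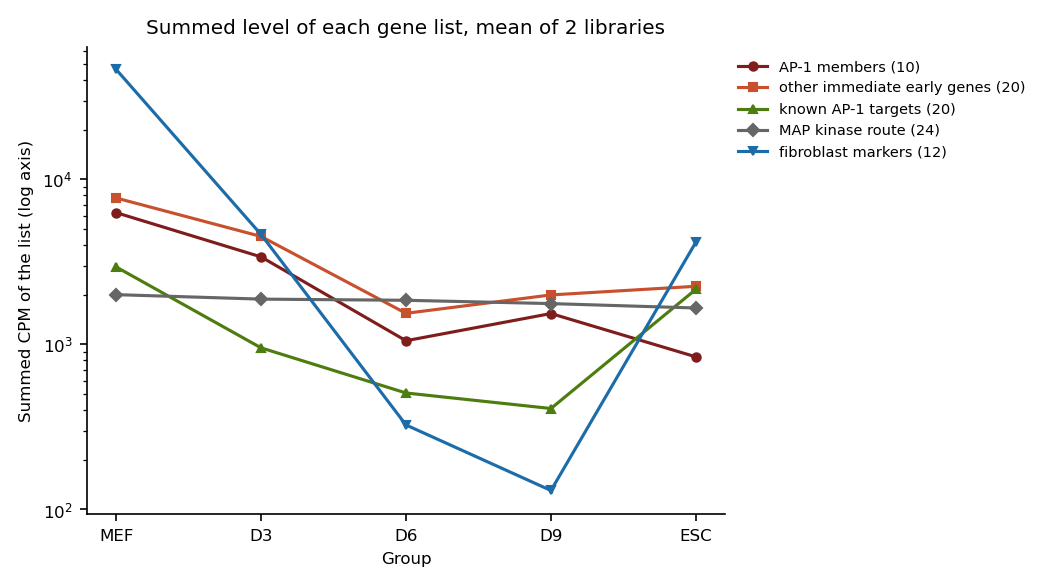
Summed CPM (y axis, log scale) of 5 gene lists in MEF, D3, D6, D9 and ESC (x axis), each point the middle of 2 libraries, whose range is narrower than the symbol. The AP-1 members and the other immediate early genes fall to D6 and stand higher at D9, the MAP kinase list stays between 1647 and 2011 CPM, and the targets and fibroblast markers stand far higher in ESC than at D9.

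Few kinases and factors upstream of AP-1 were called at the steps to D3, D6 and D9. Of 24 genes of the MAP kinase route and the ternary complex factors, 1 was called lower at D3 (Map2k1, the ERK kinase MEK1, at -1.73). At D6 and D9, 0 were called lower, and 0 were called higher at any of these steps. Over all genes, 14.5%, 10.2% and 2.68% were called lower and 14.6%, 9.26% and 5.18% higher. In ESC, 4 of the 24 were lower than at D9 and 0 higher, against 14.3% and 18.6% of all genes, so the lower calls were near the share of all genes. They were Elk3 (-1.53) and Elk4 (-1.36), ternary complex factors that act with serum response factor, Map2k3 (-1.20) and Mapk10, the last under 1 CPM. Of 10 feedback inhibitors of the route, 5 were called higher at D3 and 2 lower, against 14.6% and 14.5% of all genes. Spry4 (log2 fold change 3.26), Spred2 (1.76) and Dusp4 (1.31) rose, whereas Spry1 (-2.22) fell. Spry4 and Dusp6 were lower in ESC than at D9, at -1.96 and -1.82. RNA levels do not measure the activity of these kinases.

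Other basic leucine zipper genes that can pair with AP-1 fell in part. Of 14 tested, 5 were called lower at D3 and 0 higher, against 14.5% and 14.6% of all genes: Atf5 (-3.02), Maf (-2.96), Ddit3 (-2.37), Atf4 (-1.52) and Nfe2l1 (-1.31). Atf4, Atf5 and Ddit3 belong to the integrated stress response. At D6, 4 were lower, against 10.2% of all genes, among them Jdp2 (-1.17), a repressor of AP-1, and Mafk (-1.14). Jdp2 fell again at D9, by 1.03, the only call of the list at that step. Over all genes, 2.68% were called lower and 5.18% higher there. Between D9 and MEF, 9 of the 14 were called lower and 0 higher, against 19.8% and 24.1% of all genes.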

How the data were processed

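Total RNA was made into stranded poly(A) libraries and sequenced as single reads of 50 nt, per the labels' protocols. The submitters' processing notes name Salmon 0.8.2 and mm10; the annotation release and library type are not given in the sources used here. The authors deposited 1 table per library with an estimated count and a TPM for each of 109617 transcripts, per the file headers. The deposited estimated counts are not normalized; the deposited TPM is divided by effective length and scaled to a fixed total.

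Both were summed per gene (45706 genes) and the estimated counts rounded. Of these, 20165 passed filterByExpr (minimum count 10, total 15). CPM is on the TMM scale. Tests were edgeR quasi-likelihood (version 4.0.16, under R 4.3.3) with all 10 libraries in 1 fit, and p-values were Benjamini-Hochberg adjusted. Each SE was derived from the fold change and its F statistic. An exact permutation test of 2 against 2 libraries cannot give a p below 0.333, and none was run. Replicate pairs differed by more than sampling noise (chi-square per degree of freedom 2.78 to 5.05).

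Nearest patterns used log2 CPM (prior count 2) over genes reaching 10 CPM. Coordinates are from GENCODE M21 (GRCm38) by gene ID and promoters from RefSeq (GRCm38.p6). The text names all 10 members, the nearest patterns, the cassette genes and, per list and comparison, up to 4 called genes of at least 10 CPM with the largest changes; some are not reported here. Nfe2l1, Mapk10, Mmp10, Ctgf, Arc, Ccnd1, the macrophage and keratinocyte markers, and Hbegf and Ccl2 at D9, fall outside this. They were named after their values were seen, as were Xist, Ddx3y and Junos. The members and lists were chosen with earlier results of these data known. Alternatives were DESeq2 1.42.0, limma 3.58.1 on TPM, other filters and scalings, a replicate block and leaving out each library. The fits were tested on simulated counts. Figures used matplotlib 3.10.9.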

Additional observations from a re-analysis of the deposited data

How the results depend on the processing

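Of 108 counts of called members under the alternatives other than leaving out a library, 103 stayed within 1.5 times. Members higher at D9 than D6 numbered 7, not 1, with no fold change minimum, and members lower in ESC than at D9 numbered 5 (33.5% of all genes), not 2. Members higher in ESC than at D9 numbered 1, not 2, under the stricter filter of 10 CPM in 2 libraries, under limma on log2(TPM + 1) and with only the 2 groups fitted. In each of these the missing gene is Batf, which the stricter filter and the fit of 2 groups did not test. Leaving out 1 library at a time, where the lone library is assumed to vary like the other groups, moved members lower at D9 than D6 between 0 and 1, the 1 being Fosl1 (-1.11) without D6 replicate 2. It gave Fosl1 a log2 fold change of 0.22 at D9 without D6 replicate 1, against -0.60. For Batf at D9, fitted on 1 read, it gave 0 to 2.99.

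Batf moved most: under limma on log2(TPM + 1) it went from -3.10 to -0.72 for D3 with MEF, -5.29 to -0.13 for D6 with D3, 3.49 to 0.17 for ESC with D9, -2.63 to -0.67 for ESC with MEF and -6.12 to -0.84 for D9 with MEF, and lost each of these calls. With a pseudocount of 0.1 it lost the call for D6 with D3 (-0.94). These fitted values rest on few reads and are no bounds. Calls near the minimum also changed: at D3, Junb and Jund passed with DESeq2 (-1.06 and -1.07) and under the stricter filter (-1.03 for both), and Jund passed between D9 and MEF with DESeq2 (-1.13). Library-size scaling moved the median of all genes from 0.08 to 0.29 for D3 with MEF and from 0.10 to 0.44 for ESC with MEF, with no member changing direction. The replicate block changed no call of a member (Fos at D6, for example, stayed at -2.18). Equal replicate numbers did not deviate together (correlations of -0.02 to 0.022). Of the counts for the other gene lists, 540 stayed within 1.5 times and 108 did not, and 709 and 11 on leaving out a library. Batf and Fosl1 are limited by depth, with under 100 reads in most libraries.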
